A study of Drosophila melanogaster with 4 samples.

Results

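The 1543 regions described here are the stretches of the X chromosome at which HP1c was called enriched in heads of adult Drosophila melanogaster. They were taken from the authors' combined list (the replicate set) as every enriched region on X whose midpoint lay at or before position 20422827, which leaves out the 2 Mb nearest the centromere. They make up 21.7% of the 7116 enriched regions of that list, and another 74 regions of X fell within the stretch left out. Each was then looked for in the lists of both ChIP libraries, in which the same stretch of X held 1281 regions in replicate 1 and 1229 in replicate 2. No region called depleted lay on X in any of the 3 lists.

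Chromatin immunoprecipitation with sequencing (ChIP-seq) recovers the DNA bound by a protein with an antibody, here one against HP1c, and compares it with unselected input chromatin. All 4 libraries, 2 of HP1c ChIP and 2 of input, came from head nuclei of the wild-type strain Oregon-R at a stage labelled mixed adult, with no mutation or treatment in any group. Flies were kept in population cages and heads were collected in bulk with sieves, so each library pools many animals and all the cell types of the head, and the labels give no sex. Nothing in the labels shows that replicates 1 and 2 came from different collections. Their agreement and their differences may therefore be those of technical repeats.

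HP1c belongs to the heterochromatin protein 1 family, whose members carry a chromodomain that can bind methylated histone H3 and a chromoshadow domain through which they pair with partners. Unlike HP1a, which marks pericentric heterochromatin, HP1c is found mostly in euchromatin, where it works with the zinc-finger proteins WOC and ROW near the starts of active genes. The X chromosome is present as a pair in females and singly in males, and the MSL complex raises transcription of the male X, which makes X a chromosome whose chromatin differs from that of the autosomes. These statements are background and were not examined in these data.

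Positions are on FlyBase release 5, counted from the end of X farthest from the centromere. Each region carries a score given by the authors, whose scale the sources do not explain, and it is used here only to order regions within a list, as a percentile (0 lowest, 100 highest in that list) or as a difference between medians. Read counts are not part of the lists. The depth of the libraries, and the read depth on X, are therefore unknown.

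X regions were of ordinary width with a long upper tail. In the replicate set they ran from 1001 to 21478 bp, with a median of 2246 bp and quartiles at 1896 and 3024 bp. Median widths were 2273 bp in the list of replicate 1 and 2287 bp in that of replicate 2. Together the regions covered 17.6% of the stretch in replicate 1 and 16.7% in replicate 2. Wider X regions scored higher, with a rank correlation across regions of 0.783 in each library, over 1281 and 1229 regions that share a library.

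Most X regions of the combined list were found in both libraries. Of the 1543, 1068 (69.2%, exact 95% interval 66.8 to 71.5) overlapped a region of both replicates by at least 1 bp. The share was 71.3% in the whole list, which includes X, and 73.2% on the same 4 autosome arms. Another 169 X regions met replicate 1 alone (10.95%, beside 10.6% of the whole list) and 113 met replicate 2 alone (7.32%, beside 7.28%). The 193 that met neither were 12.5%, beside 10.8% of the whole list and 9.49% on the arms. The 1068 found in both had a median width of 2602 bp and a median score of 1.22. Those found in neither were narrow (median 1321 bp) and scored a median of 0.416. The narrowest X region was 1001 bp in the combined list but 1302 bp in each library's list. The combined list was made from the same libraries, so these shares describe how it was built.

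Set against each other, the libraries marked much the same parts of X. Of the X regions of replicate 1, 1105 (86.3%, interval 84.3 to 88.1) overlapped a region of replicate 2, beside 86.5% over all sequences. Of those of replicate 2, 1114 (90.6%, interval 88.9 to 92.2) overlapped replicate 1, beside 90.1%. Both shares lie near those of all regions, so nothing about X is read from them. The lists shared 3050 kb of X, or 77.0% of the base pairs in either. X regions of replicate 1 with no partner had a median width of 1726 bp and lay at a median score percentile of 27.3, against 2403 bp and 61.5 for those with one. In replicate 2 the values were 1808 bp and 27.8 against 2351 bp and 55.4.

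Borders and scores were compared where a member matched a single region in each library and these regions in turn met a single region of each other and of the combined list. In 987 such X regions, the starts differed between the libraries by a median of 63 bp and the ends by 64 bp. Both borders lay within 200 bp of each other in 64.2% of them. Spearman's rho of the scores was 0.885 and Pearson's r 0.911, as a description across regions that share libraries. The corresponding autosomal values, over 3457 regions, were 0.908 and 0.929.

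**Figure D1:**
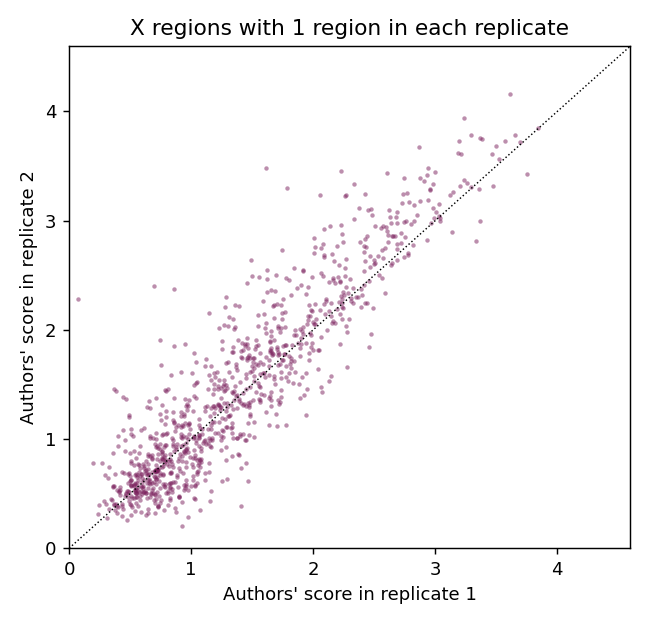
Each point is an X region in which a single region of each list met a single one of the others, placed by the authors' score in replicate 1 (horizontal) and replicate 2 (vertical), with a dotted line of equality. The 987 points follow the line (Spearman's rho 0.885), and a few lie far from it, the farthest at 0.0769 in replicate 1 and 2.28 in replicate 2.

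The 10 X regions with the highest combined scores were single, compact regions in both libraries, from 2352 to 3218 bp wide. The highest ran from 2596776 to 2599701, with a score of 3.61 (rank 44 of the list) in replicate 1 and 4.16 (rank 20) in replicate 2. The second, from 17595728 to 17598519, scored 3.84 (rank 22) and 3.85 (rank 55). The third, from 14130859 to 14133419, scored 3.65 (rank 39) and 3.79 (rank 70). The strongest X region of replicate 2 was not among the 10. It ran from 5222244 to 5225035 with a score of 4.42 (rank 5), and its counterpart in replicate 1 scored 2.62 (rank 443).

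The other 7 ranked between 32 and 133 in replicate 1 and between 43 and 179 in replicate 2. In order of combined score they lay at 7794229 to 7796986, 1772501 to 1775718, 15626534 to 15629384, 2625173 to 2627524, 7627303 to 7630393, 18550246 to 18552876 and 7621273 to 7623966. The order within these 10 differed between the libraries. The region at 15626534 ranked 133 in replicate 1 and 43 in replicate 2, and the one at 2625173 ranked 32 and 179. Of the 10 highest X regions of each library taken separately, 4 were shared.

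X supplied fewer of the strongest regions than of the list as a whole. It held 14 of the 100 highest-scoring regions of replicate 1 and 12 of those of replicate 2, where X regions were 21.3% of each list. Among the 500 highest it held 95 (19.0%) and 83 (16.6%).

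The 5 widest X regions were divided differently in the libraries. The widest of all, from 7584505 to 7605982, spanned 21478 bp and was 1 region of 21402 bp in replicate 2 and 3 regions of 21292 bp in sum in replicate 1. The region from 8779974 to 8796741 (16768 bp) was 2 regions in replicate 1 and 1 in replicate 2, as was the one from 14101048 to 14117712 (16665 bp). The region from 11480243 to 11496360 (16118 bp) was broken into 4 regions in replicate 1 and 6 in replicate 2, yet their summed widths were 16052 and 15517 bp. The fifth, from 3564614 to 3578102 (13489 bp), held 3 and 2 regions. In 4 of these 5 the summed width in each library was within 2000 bp of the combined region, although the partition differed. In the fifth, the regions of replicate 1 summed to 11306 bp. These sums take each overlapping region whole, with any part outside the combined region. The base pairs shared by the libraries within each stretch were not computed.

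Regions of 5 kb or more were a larger share of X than of the autosome arms. They numbered 140 of the 1543 X regions (9.07%, beside 6.28% of the whole list) and held 23.2% of the base pairs covered on X. All 140 overlapped a region in both libraries by at least 1 bp. This share was not computed for wide regions of the arms, so nothing about X is read from it. Only 94 of them were a single region in both libraries, as 30 were split in replicate 1 and 32 in replicate 2. Over all widths, 3.31% of X regions that met replicate 1 were split there and 3.90% in replicate 2. The arm shares were 1.86% and 2.00%, and widths were not matched. In the libraries, regions this wide were 8.59% of X regions in replicate 1 and 7.73% in replicate 2, against 4.24% and 3.96% on the arms 2L, 2R, 3L and 3R together, each likewise without its 2 Mb nearest the centromere. Their density on X was 5.39 and 4.65 per Mb, against 2.03 and 1.82, a ratio of 2.65 and 2.56. X exceeded each of the 4 arms in both libraries. With 2 libraries an exact paired permutation test over samples cannot give a p below 0.5. That was its two-sided value for this density and for regions per Mb, covered length, median gap, median width and score percentile below, so none of these differences can be called. The comparisons by width class and by score class were not tested.

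The excess on X grew with width at the upper end. Regions under 2 kb were 1.32 times as dense on X as on the arms in replicate 1 and 1.297 times in replicate 2. For 2 to 3 kb the ratios were 1.17 and 1.195, and for 3 to 5 kb 1.40 and 1.43. For 5 to 10 kb they were 2.56 and 2.48, from 101 and 89 X regions. At 10 kb or more X held 9 regions in replicate 1 and 6 in replicate 2, and the 4 arms, with over 4 times the length, held 9 and 5.

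Over all widths, X carried 62.7 regions per Mb in replicate 1 and 60.2 in replicate 2. The 4 arms together carried 47.9 and 45.8. The densest of them, 2R, carried 53.0 and 49.9, so the lowest X value lay above the highest value of any arm. The ratio of X to the arms was 1.31 in each library. In covered length it was larger, at 1.42 in each. Neighbouring X regions lay closer together, with median gaps of 5210 bp (replicate 1) and 5581 bp (replicate 2), against 7646 and 7942 bp on the arms, whereas the median widths hardly differed (ratios 1.004 and 1.009).

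**Figure D2:**
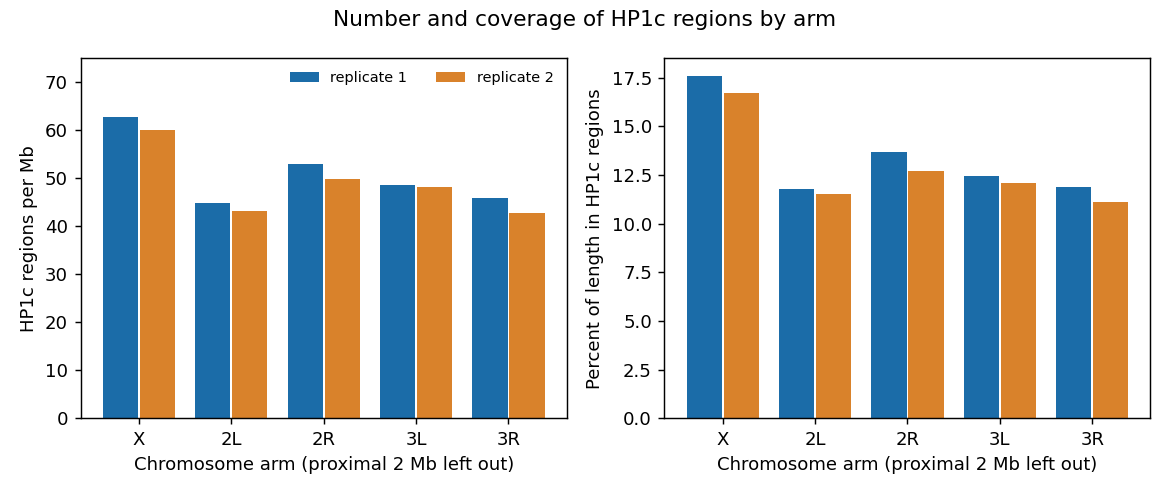
Bars give, for X and each autosome arm without its proximal 2 Mb, HP1c regions per Mb (left) and the percent of length within regions (right) in replicate 1 (blue) and replicate 2 (orange). Both X bars stand above all arm bars in both panels, at 62.7 and 60.2 regions per Mb and 17.6% and 16.7% of length.

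The mean score percentile of X regions was 54.6 in replicate 1 and 52.3 in replicate 2, against 48.8 and 48.7 on the arms. Splitting each list by score showed that the excess on X was not spread evenly over strong and weak regions, a comparison made after the values were seen. Each library's list was cut into 10 score classes of equal size, numbered from the lowest. In class 1 X was sparser than the arms, with 44 regions on X in replicate 1 and 29 in replicate 2, ratios of density of 0.378 and 0.241. In class 4 X was densest relative to the arms, at 1.91 and 2.00. From class 5 to class 8 the ratio stayed between 1.57 and 1.76 in replicate 1 and between 1.59 and 1.71 in replicate 2. In class 10, the highest, it was 1.11 for replicate 1 and 0.928 for replicate 2, and the libraries lay on either side of 1. The overall ratio of 1.31 is thus an average over a range in which X was short of the weakest calls, rich in middle scores and close to the arms in class 10. Class 10 is wider than the 100 highest, of which X held 14 and 12, below its 21.3% of each list.

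**Figure D3:**
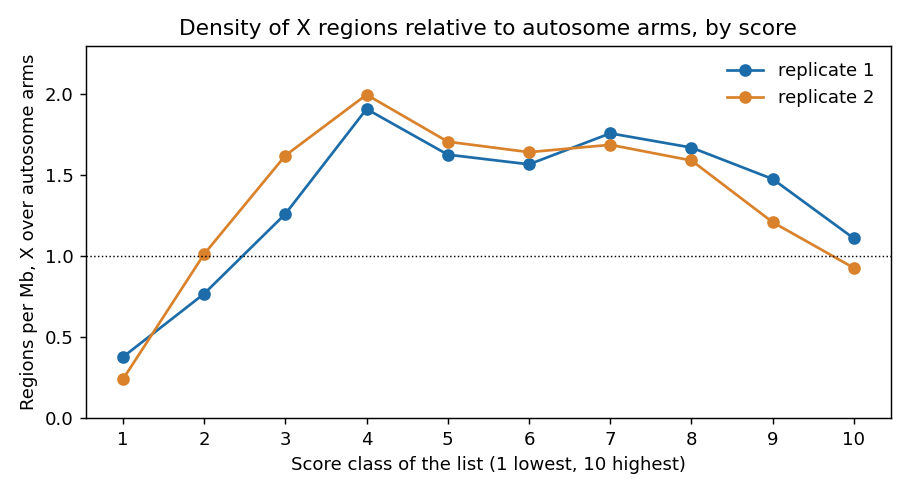
The density of HP1c regions on X divided by that on the 4 autosome arms is plotted for 10 score classes of a library's list, from the lowest (1) to the highest (10), for replicate 1 (blue) and replicate 2 (orange). Both lines start well below the dotted line of equal density (0.378 and 0.241), peak in class 4 (1.91 and 2.00) and return towards it (1.11 and 0.928).

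Narrow X regions carried higher scores than autosomal regions of the same width class. Among regions under 2 kb, the median score on X was 0.549 in both libraries. On the arms together it was 0.402 in replicate 1 and 0.381 in replicate 2, and single arms ran from 0.395 to 0.415 and from 0.364 to 0.400. The medians therefore stood 0.147 and 0.168 higher on X, outside the range of the arms in both libraries. At 2 to 3 kb the difference was 0.04998 in replicate 1 and -0.0836 in replicate 2, and at 3 to 5 kb 0.114 and -0.0312, so its direction was not repeated. At 5 to 10 kb it was 0.179 and 0.0997, although in replicate 2 the X median of 2.18 fell just short of that of 3R, 2.19.

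**Figure D4:**
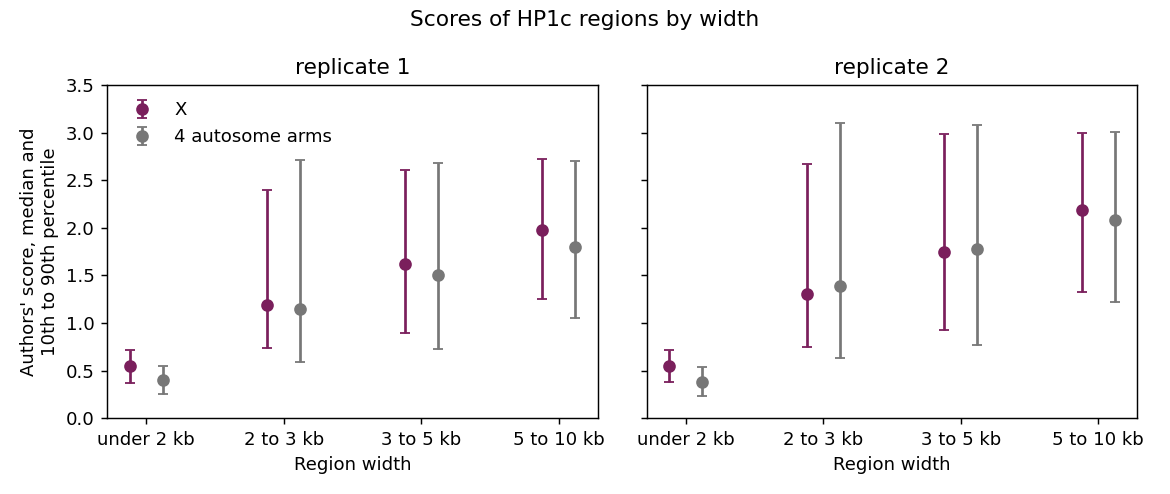
Points are the median authors' score of HP1c regions in 4 width classes, on X (purple) and on the 4 autosome arms (grey), and bars reach from the 10th to the 90th percentile of regions, for replicate 1 (left) and replicate 2 (right). Under 2 kb the X medians (0.549 in both) stand above the arms (0.402 and 0.381), while in the middle classes the ranges largely coincide.

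Regions found in a single library also had a higher median score on X. Most of these X regions belong to the narrow class above (median widths of 1726 and 1808 bp), so this is no separate support. On X, the 176 regions of replicate 1 without a partner in replicate 2 had a median score of 0.578, against 0.417 for 568 on the arms, where single arms ran from 0.398 to 0.446. The 115 X regions of replicate 2 without a partner had a median of 0.620, against 0.401 for 379 on the arms. Scores under 0.3 were given to 1.09% of X regions and 4.97% of arm regions in replicate 1, and to 0.570% and 6.35% in replicate 2. Low scores thus made up a smaller share of the X regions. As the lists hold no read counts and no regions below the authors' threshold, the level at which a region was called on X and on the arms was not tested.

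X and arm regions of the same score quartile also differed in how often they were found in both libraries. In the second quartile of the combined list by score (0.369 to 0.744), 246 of 514 X regions overlapped both libraries (47.9%), against 857 of 1107 on the arms (77.4%). In the third quartile the shares were 97.0% and 99.3%, and in the highest quartile 100% of 375 X regions and 99.8%. In the lowest quartile they were 13.8% of 225 X regions and 25.4% of the arms. The combined list was made from the same libraries, so these shares describe how it was built. Widths were not matched, with second-quartile medians of 1993 bp on X and 2090 bp on the arms. Within the libraries, the share of second-quartile regions overlapped by the other library was also lower on X, at 75.4% against 91.0% in replicate 1 and 84.3% against 93.2% in replicate 2. The lowest quartile gave no such repeat, with 58.4% on X against 60.4% in replicate 1 and 76.8% against 73.2% in replicate 2. In the combined list, X regions not found in both libraries had class medians of 0.379 to 0.416, within the second quartile. Those of the arms, 0.250 to 0.306, lay below it. The quartile shares are therefore no support separate from the scores above. Over all scores, the overlapped share on X minus that on the arms was -0.349 points in replicate 1 and -0.0245 in replicate 2.

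Along X, regions were denser than the autosomal median nearly throughout, with abrupt changes between neighbouring stretches. In 20 whole bins of 1 Mb, X held from 40 to 93 regions in replicate 1 (median 64.5) and from 37 to 86 in replicate 2 (median 61). The 87 autosomal bins had medians of 46 and 45. Of the 20 X bins, 18 in replicate 1 and 16 in replicate 2 exceeded that median. The highest autosomal bin held 77 and 72 regions, and 3 and 6 X bins held more.

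By the mean of the libraries, the densest bin, from 6000001 to 7000000, held 93 and 84 regions and was covered to 27.1% and 24.2%. Next came 11000001 to 12000000 with 83 and 86, the most of any X bin in replicate 2, and 13000001 to 14000000 with 78 and 75. The 3 sparsest by that mean held 40 and 38 (4000001 to 5000000), 42 and 37 (14000001 to 15000000) and 47 and 37 (the distal end, 1 to 1000000), and their order differed between the libraries. Dense and sparse bins thus adjoined each other, since the bin after 13000001 to 14000000 held about as few regions as any. The libraries gave the same outline, with bins differing by at most 11 regions and a Pearson's r of 0.949 over the 20 bins, given as a description. Bins with more regions did not hold stronger ones to any great extent: the rank correlation of number with median score percentile was 0.108 in replicate 1 and 0.166 in replicate 2.

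**Figure D5:**
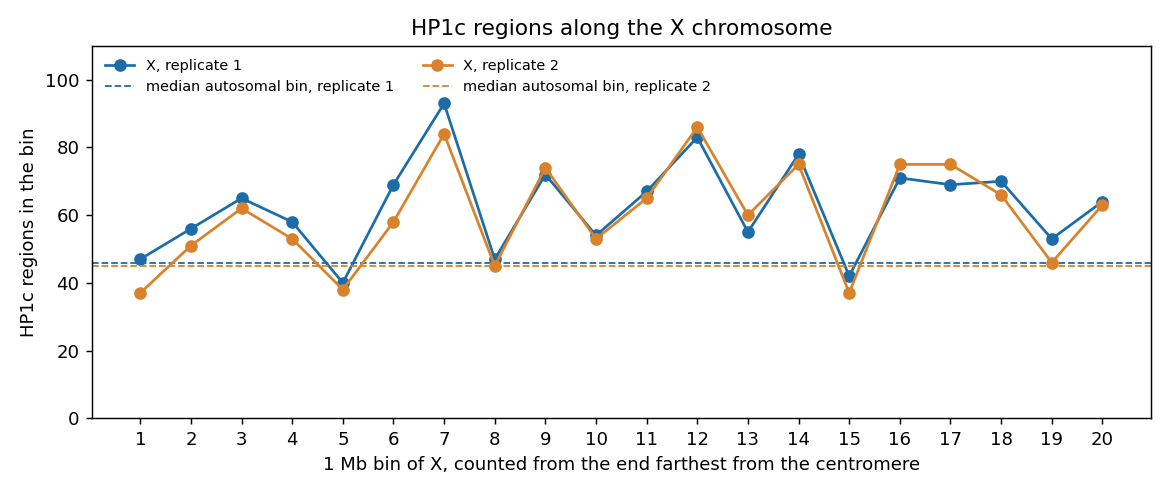
Lines give the number of HP1c regions in each whole 1 Mb bin of X, numbered from the end farthest from the centromere, in replicate 1 (blue) and replicate 2 (orange), and dashed lines give the median autosomal bin (46 and 45). Both libraries peak in bins 7, 12 and 14 and dip to or below the autosomal median in bins 5 and 15.

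Cut into 3 equal lengths, the distal, middle and proximal parts of the stretch differed little in replicate 1 (60.2, 66.0 and 62.0 regions per Mb) and more in replicate 2 (53.9, 66.4 and 60.2). The middle part was the densest in both. The distal part was the sparsest in both, and it was there that the libraries were least alike, with 410 regions in replicate 1 and 367 in replicate 2.

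X regions also gathered into runs. A run is a series in which each gap to the next region is under 5 kb. Of the X regions, 20.0% in replicate 1 and 16.7% in replicate 2 lay in runs of 5 or more, against 10.4% and 10.0% on the arms. Regions with no neighbour within 5 kb made up 28.6% and 29.1% on X and 39.3% and 39.7% on the arms. A denser chromosome has shorter gaps by arithmetic, and these shares were not corrected for density.

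The longest run of the combined list ran from 13189645 to 13257176, over 67532 bp, with 14 regions that filled 63.7% of it. Replicate 1 placed 12 regions there and replicate 2 placed 13. The second, from 6547393 to 6606559 (59167 bp), held 11 regions in each of the 3 lists and lies in the bin from 6000001 to 7000000. The third, from 15184313 to 15240270 (55958 bp), held 12 regions in the combined list and 10 in each library. Scores within these runs were mixed, from 0.312 to 3.52 in the first and from 0.0856 to 3.27 in the third, so each run contained strong and weak regions side by side.

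The longest stretch of X with no region ran from 7361856 to 7544823, over 182968 bp, and the second from 7630394 to 7781832, over 151439 bp. In replicate 1 only the last 41 and 20 bp of flanking regions reached into them, and replicate 2 had none. The third, from 2776005 to 2925521 (149517 bp), was empty in both libraries. Gaps of 100 kb or more took up 5.74% of the X stretch and 13.3% of the arms. These were 9 gaps on X and 83 on the arms, and the shares were not corrected for density.

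Between the first and the second of these empty stretches lay an island of 85570 bp, from 7544824 to 7630393, singled out after its values were seen. It held 7 regions of the combined list, 8 of replicate 1 and 6 of replicate 2, which filled 38.1% of it in replicate 1 and 38.2% in replicate 2. It contains the widest X region (7584505 to 7605982) and 2 of the 10 strongest (7621273 and 7627303). Beyond the second empty stretch, the next of these 10 was the fourth, at 7794229.

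Isolated X regions, with at least 20 kb to the nearest neighbour on either side, numbered 55. They were 3.56% of X regions, beside 7.07% of the whole list and 6.90% on the arms, shares that were not corrected for density. Their median width was 1893 bp and their median score 0.583. Both libraries held 28 of them (50.9%), beside 58.4% of isolated regions in the whole list.

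Some X regions changed place between the libraries. Of 1001 that met 1 region in each, 63.3% kept their score percentile within 10 points, and 72 (7.19%, beside 7.85% of the whole list) moved by more than 25 points. Of these, 47 had a lower percentile in replicate 2 and 25 a higher one, against 129 and 118 on the arms. The median shift of all 1001 was -4.34 points, and that of the 3490 on the arms was -2.17 points. The largest shift was at 15884958 to 15887404, whose region scored 0.0769 in replicate 1, at percentile 0.141, and 2.28 in replicate 2, at percentile 79.7. At 4701071 to 4703132 the score was 1.41 in replicate 1 and 0.384 in replicate 2, 56.6 points lower. At 16196821 to 16198960 it was 0.370 and 1.46, at 22731 to 24858, near the distal end, 0.387 and 1.44, and at 7615095 to 7617167, within the island described above, 0.928 and 0.201. In the 3 that were stronger in replicate 2 the region was also narrower in replicate 1, at 1478, 1380 and 1359 bp against 2689, 2107 and 2161 bp.

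The strongest X regions missing from a library were of middling score. The highest that met replicate 2 alone, from 16234442 to 16235606, had a combined score of 1.26 and scored 1.22 in replicate 2. Next were 6848297 to 6849639, 9988779 to 9990060 and 2104330 to 2105463, also in replicate 2 alone, with combined scores of 0.957, 0.881 and 0.841. The fifth, 17790469 to 17791519, met replicate 1 alone and scored 0.767. Of regions that met neither library, the highest was 9995895 to 9996945 with 1.29, followed by 6456660 to 6457787 with 0.994, 5374881 to 5376088 with 0.840, 13957698 to 13958698 with 0.807 and 1416431 to 1417886 with 0.799. All 10 were between 1001 and 1456 bp wide. Neither library's list held an X region narrower than 1302 bp, so most of these 10 were narrower than any region listed there. What that difference between the lists contributes to their absence was not tested.

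At the position limit, the last X regions included were 20394906 to 20397157 (score 0.948, found in both libraries) and 20405571 to 20406602 (0.688, found in neither). The first left out were 20525330 to 20529067 (2.00, found in both) and 20532543 to 20533568 (0.469, found in neither).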

How the data were processed

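HP1c ChIP-seq regions were read from 3 lists, 1 per ChIP library and 1 replicate set. Alignment used Bowtie 0.12.7 (per the submitters' processing notes), and each ChIP library was paired with the input of its number, per the labels. Positions and arm lengths are those of FlyBase release 5, per the file headers. The score is the deposited value per region. The sources do not give the program that called regions, its threshold or how the replicates were joined. Input libraries have no values here.

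The X regions were compared with 2L, 2R, 3L and 3R, each without its 2 Mb nearest the centromere, by midpoint. Overlap meant 1 bp or more. X and arms were compared by two-sided exact permutation over the 2 within-library differences. Intervals on shares are exact (Clopper-Pearson, 95%) and cover only the number of regions. Named regions are the 10 highest-scoring found in both libraries, 5 widest, 5 highest found in 1 library, 5 found in neither, 5 largest percentile shifts, 3 densest and 3 sparsest bins, 3 longest empty stretches, 3 longest runs and those at the position limit. Members and comparisons were chosen with earlier results of these data known. Genes and sequences at these regions were not analysed here, since the gene table used is of Release 6. The software was Python 3.11.15 with scipy 1.17.1, numpy 2.4.6, matplotlib 3.10.9 and pandas 2.3.3, and overlap and density code was tested on simulated data.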

Additional observations from a re-analysis of the deposited data

How the results depend on the processing

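Of 53 alternatives over 8 results on X, 48 kept the direction of the mean of the libraries or, for the number of regions and the share found in both libraries, stayed within 1.5 times or within the interval. The alternatives are not independent. Leaving out a replicate gives back the value of the other library, and density by summed base pairs repeats the ratio of covered length. The mean number of X regions went from 1255 to 672 in the upper 50% by score, to 302 in the upper 25% and to 632 among regions at least as wide as the median, which follows from those subsets. The share found in both libraries went from 69.2% to 66.5% with reciprocal overlap of 50%. The ratio of X to arm density, 1.31, was 0.701 among the lowest 25% by score, an alternative chosen after seeing the data like those of the upper 10% by score (1.02, with 1.11 in replicate 1 and 0.926 in replicate 2) and of regions under 5 kb (1.26). Restricted to regions under 5 kb, the ratio of covered length fell from 1.42 to 1.27. Under the other alternatives the density ratio stayed between 1.25 and 1.45. Among regions at least as wide as the median, the difference in mean score percentile fell from 4.67 to 0.653 points and the libraries took opposite signs (2.26 and -0.951). With both lists cut to their upper 50% by score, overlap was counted only between those upper parts. The overlapped share on X minus that on the arms was then -6.03 points in replicate 1 and 0.545 in replicate 2. By the whole list of replicate 2, 98.9% of third-quartile X regions of replicate 1 were overlapped, beside 99.8% on the arms. In the highest quartile the share was 100% on X and on the arms. With whole arms the libraries also took opposite sides for the overlapped share, at -0.382 and 0.0675 points. The ratio of median width did likewise, at 0.997 and 1.004.

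Without each replicate, values ran from 1229 to 1281 regions, from 1.310 to 1.313 for density, from 1.417 to 1.421 for covered length, from 3.56 to 5.77 points for score percentile, from -0.349 to -0.0245 points for overlap, from 1.004 to 1.009 for median width and from 0.681 to 0.703 for the median gap. No paired analysis was possible because values were not given for the input libraries, so ChIP could not be paired with input; the test over samples paired X with the arms within each ChIP library. Depth is unknown, so what it limits could not be examined.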
